A study of Mus musculus with 12 samples.

Results

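The 8 genes described here, Gpam, Agpat2, Agpat3, Lpcat1, Lpcat3, Lpcat4, Lpin1 and Lpin2, encode acyltransferases and lipins of glycerolipid and phospholipid synthesis. They were chosen by symbol from a table of 21936 genes, and all 8 were among the 13228 genes that passed the filter on low values (above 1 FPKM in at least 2 libraries). FPKM is a read count divided by the exon length of the gene and by the depth of the library, so levels of different genes can be compared. RNA was sequenced from male C57BL/6 mice that entered the study at 6 to 8 weeks of age and lived under 12 h of light per day. Control mice ate a standard diet with 10 kcal% fat and high-fat mice ate a diet with 60 kcal% fat, for 3 months by the sample labels or 4 months by the series text. Tissue was taken at 9h, 15h and 21h, which gave 6 groups of 2 libraries and 12 libraries in all. The mice carried no named allele and received no named agent other than the diet. The sample labels call the tissue meibomian gland, the oil gland of the eyelid margin, and the series text describes entire eyelids. The question set by the series title is how a fat-rich diet and the hour of the day bear on gene expression in this tissue. No label tells whether RNA of 1 animal or of several went into a library. The p-values therefore reflect only how far these libraries spread, which may in part be technical.

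The depth recovered from the values was 14096362 to 17889158 reads per library. All 12 genes of the meibocyte and sebocyte list were detected, with a summed level of 7267 to 12190 FPKM over the 12 libraries. The list serves for both cell types, so it does not separate the labelled gland from other sebaceous tissue. Skeletal muscle markers (10 of 10 detected, summed level 2533 to 6914 FPKM), keratinocyte markers (7 of 7, 2770 to 3939 FPKM) and conjunctival markers (4 of 4, 1075 to 1957 FPKM) were also present, as the series text on eyelids implies. Adipocyte markers (9 of 9) summed to 54.3 to 90.3 FPKM, and markers of lacrimal and salivary acini (4 of 5 in the table) to 7.43 to 19.6 FPKM, with Prol1 at 0 in 11 libraries. One library, high-fat replicate 7 at 9h, stood apart in having the fewest genes above 1 FPKM (12136, against 12344 to 12770 in the others) and the lowest median-of-ratios scaling factor (0.932, against 0.971 to 1.04). The other library of its group, replicate 6, had the highest factor (1.044, with the next at 1.033). Among high-fat libraries, the summed meibocyte and sebocyte markers were lowest in replicate 6 at 9h (7830 FPKM) and highest in replicate 7 at 9h (12190 FPKM).

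Glycerolipids are built on glycerol 3-phosphate. Glycerol-3-phosphate acyltransferases such as GPAM add the first fatty acid, the AGPAT enzymes add the next to make phosphatidic acid, and lipins remove its phosphate to give diacylglycerol, from which both triglycerides and the main phospholipids are made. The LPCAT enzymes then act on finished membranes: they put a new fatty acid on a lysophospholipid, and so set which acyl chains a membrane carries. In meibocytes, the holocrine cells of the gland, this pathway runs beside the synthesis of wax esters and cholesteryl esters that dominate the secreted oil.

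All 8 genes are protein-coding, and their positions are from GENCODE mouse release 21 on GRCm38. Gpam lies at chr19:55067268-55127238 on the minus strand, Agpat2 at chr2:26593057-26604417 (minus) and Agpat3 at chr10:78269178-78352489 (minus). Lpcat1 lies at chr13:73467197-73516422 (plus), Lpcat3 at chr6:124663027-124704418 (plus) and Lpcat4 at chr2:112239468-112247111 (plus). Lpin1 lies at chr12:16535669-16610966 (minus) and Lpin2 at chr17:71182560-71249817 (plus). Exons of Agpat2 share 64 bases with Egfl7 on the opposite strand, and exons of Lpcat3 share 334 bases with Emg1 on the opposite strand. Whether the counting used strand is not given in the sources used here, so reads in these shared bases cannot be assigned. Egfl7 was at 2.21 to 6.76 FPKM and Emg1 at 13.3 to 17.1 FPKM.

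Promoter sequence is shown for 2 pairs of genes: Gpam and Lpcat3, whose levels varied together over the libraries, and Lpin1 and Lpin2, for which r was -0.473 (adjusted permutation p = 0.296 over 28 pairs of the 8 genes). The sequences are RefSeq's (GRCm38.p6), from the 250 bases before the start of transcription, and bases that GENCODE places in an exon were left out. Written 5′ to 3′ on the strand of the gene, they cover chr19:55127239-55127488 for Gpam (the first of 2 RefSeq starts), chr6:124662854-124663026 for Lpcat3, chr12:16610967-16611216 for Lpin1 and chr17:71183282-71183531 for Lpin2 (the first of 3 starts). Capitals mark matches on either strand to the CCAAT box, to the letters GGGCGG of the GC box, or to those of the E-box, which are CACGTG.
Gpam: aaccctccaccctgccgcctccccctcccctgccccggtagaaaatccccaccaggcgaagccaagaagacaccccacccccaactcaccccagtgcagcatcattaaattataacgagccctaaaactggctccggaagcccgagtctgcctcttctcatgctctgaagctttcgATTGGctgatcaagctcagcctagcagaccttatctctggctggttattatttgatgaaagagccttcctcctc
Lpcat3: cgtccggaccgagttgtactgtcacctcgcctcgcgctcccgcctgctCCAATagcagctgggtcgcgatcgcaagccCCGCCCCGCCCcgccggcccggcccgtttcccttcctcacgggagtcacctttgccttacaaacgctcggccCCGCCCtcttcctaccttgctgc
Lpin1: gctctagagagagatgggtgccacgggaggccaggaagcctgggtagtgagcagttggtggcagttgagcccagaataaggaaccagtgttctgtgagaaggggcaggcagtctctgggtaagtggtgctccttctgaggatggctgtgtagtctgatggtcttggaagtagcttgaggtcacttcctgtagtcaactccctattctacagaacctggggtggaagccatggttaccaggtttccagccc
Lpin2: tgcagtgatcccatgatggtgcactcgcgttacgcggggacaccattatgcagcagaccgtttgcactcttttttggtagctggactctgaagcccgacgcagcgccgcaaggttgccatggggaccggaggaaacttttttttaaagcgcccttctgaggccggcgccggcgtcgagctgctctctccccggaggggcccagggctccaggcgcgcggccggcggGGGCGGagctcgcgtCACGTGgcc
The Gpam stretch held 1 CCAAT box and the Lpcat3 stretch 1 CCAAT box and 3 GC boxes, of which the first and second overlap by 1 base. The printed Lpcat3 stretch has only 173 bases. Its full window of 250 bases, exon bases included, held 3 CCAAT boxes and 5 GC boxes. The Lpin1 stretch held none of the motifs, and the Lpin2 stretch held 1 GC box and 1 E-box, the element that CLOCK and BMAL1 bind. Of 32851 RefSeq windows of 250 bases, 33.8% held a CCAAT box, 32.7% a GC box and 6.02% an E-box. A core D-box (TTATGTAA, in 0.819% of windows) and a sterol element (TCACCCCAC, in 0.496%), each searched on both strands, matched none of the 11 windows of the 8 genes. The Lpcat4 window lies entirely inside an untranslated exon of GENCODE and is not printed; it was 79.6% G and C, above 98.6% of all windows, and held 3 GC boxes. These are matches of letters, not measured binding.

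Lpcat3 was by far the most abundant of the 8 transcripts. Its mean over the 12 libraries was 149.9 FPKM (107.9 to 199.0), 3.56 times that of Gpam, the next in order, and it was above Gpam in all 12 libraries. LPCAT3 places polyunsaturated fatty acids in phosphatidylcholine. Gpam (mean 42.1 FPKM, 33.1 to 51.6) and Agpat3 (41.9 FPKM, 32.0 to 57.0) could not be ordered: Gpam was the higher in 7 of 12 libraries. Agpat3 was above Lpcat4 (28.9 FPKM, 21.3 to 37.5) in 11 of 12 libraries. Lpcat4 was above Agpat2 (11.7 FPKM, 9.40 to 13.5) in 12 of 12, and Agpat2 was above Lpin2 (7.98 FPKM, 4.74 to 10.7) in 12 of 12. Lpin2 was above Lpin1 (5.44 FPKM, 3.92 to 8.15) in 10 of 12, and Lpin1 and Lpcat1 (4.80 FPKM, 3.42 to 5.93) could not be ordered, with Lpin1 higher in 6 of 12. The mean of Lpcat3 was above that of 97.8% of the genes tested, and that of Lpcat1 above 38.6%. The third lipin, Lpin3, not one of the 8, averaged 14.0 FPKM, above the means of Lpin1 and Lpin2.

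**Figure D1:**
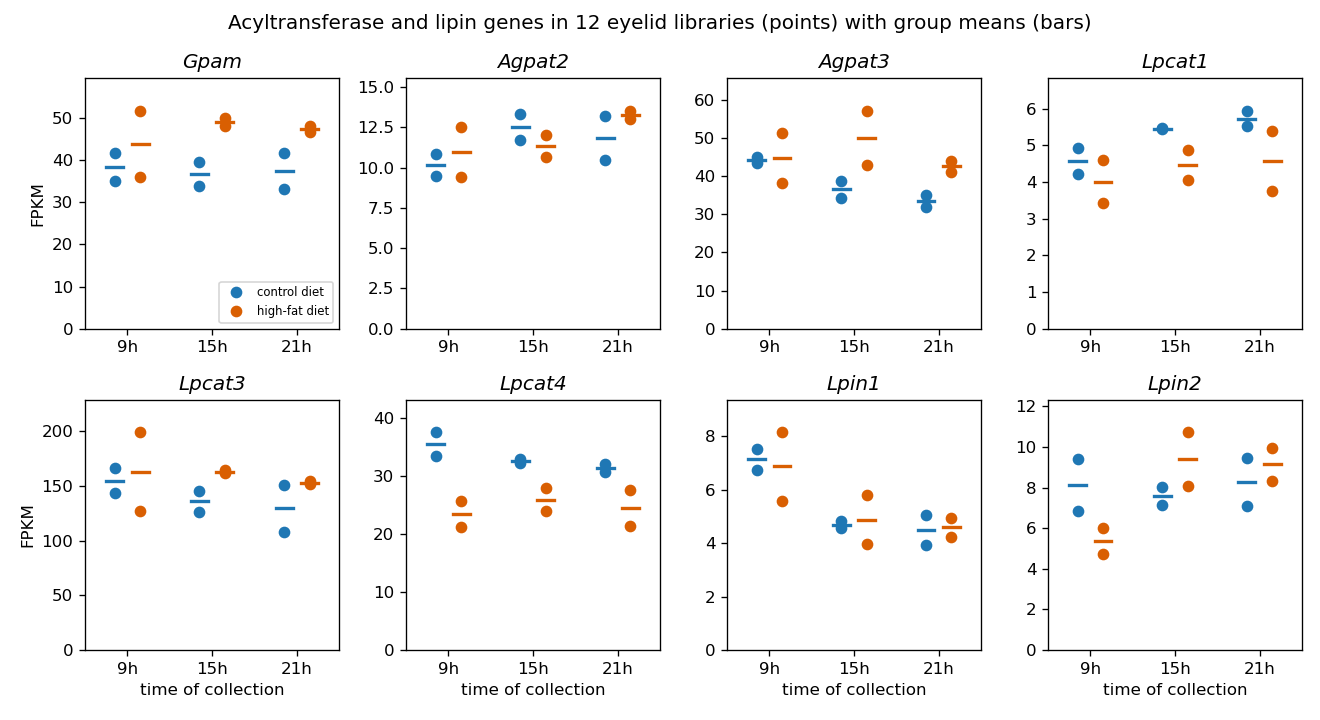
FPKM of the 8 genes (y axis of each panel, linear from 0) at 9h, 15h and 21h (x axis); each point is 1 of the 12 libraries, 2 per diet and time, and each bar is a group mean. For Lpcat4 the 6 high-fat libraries sit between 21.3 and 28.0 FPKM, all below the 6 control libraries at 30.7 to 37.5 FPKM, while for Agpat2 the diets overlap.

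High-fat mice had less Lpcat4 transcript than controls, and it was the only one of the 8 genes called for diet. The test was limma on log2(FPKM + 1), for the mean of the high-fat minus control differences at the 3 times, with Benjamini-Hochberg adjustment over the 13228 genes, and a gene with an adjusted p under 0.05 counts as called. By that rule 1.98% of all genes were called (1.78% lower, 0.204% higher), so 1 of 8 genes is a small count. Without adjustment, 4 of the 8 had p under 0.05 (Gpam, Agpat3, Lpcat1 and Lpcat4), against 14.1% of all genes. The differences were positive for 4 genes and negative for 4, with a median of 0.02 on the log2 scale against -0.01 for all genes tested. At single times none of the 8 was called: 0.0% of all genes were called at 9h, 0.0605% at 15h and 0.00756% at 21h, and at an unadjusted p under 0.05 it was 2, 3 and 1 of the 8, against 7.22%, 11.6% and 5.37% of all genes. The interaction of diet and time called none of the 8 and 0.0% of all genes, with 1 of the 8 at an unadjusted p under 0.05 against 3.06% of all genes.

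**Figure D2:**
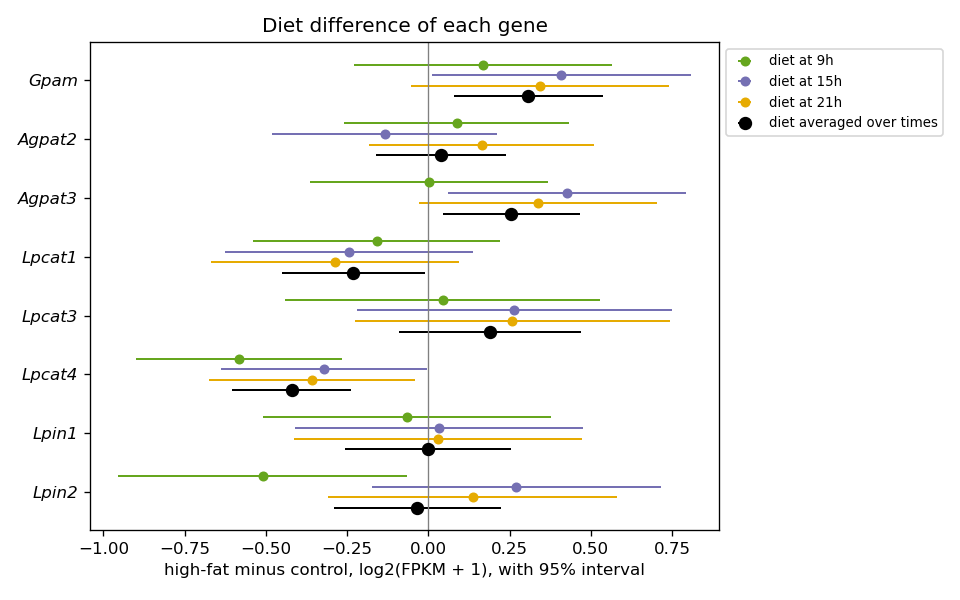
High-fat minus control difference in log2(FPKM + 1) for each of the 8 genes, averaged over times and at each time; error bars are 95% confidence intervals of the limma fit. The averaged interval lies above 0 for Gpam and Agpat3 and below 0 for Lpcat1 and Lpcat4, and of these only Lpcat4 passed the adjustment over all genes.

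Lpcat4 encodes an enzyme that reacylates lysophospholipids. In controls its level was 37.5 and 33.5 FPKM at 9h, 32.9 and 32.2 FPKM at 15h, and 32.0 and 30.7 FPKM at 21h. In high-fat mice it was 25.6 and 21.3 FPKM at 9h, 23.9 and 28.0 FPKM at 15h, and 21.4 and 27.5 FPKM at 21h. Every high-fat library was below every control library, which held for 1.86% of the genes tested. The control mean was 33.1 ± 2.34 FPKM and the high-fat mean 24.6 ± 2.92 FPKM (SD, n = 6 each), 25.8% lower. The averaged difference was -0.42 ± 0.08 (SE) on the log2(FPKM + 1) scale, with a limma adjusted p of 0.0335. It was -0.58 at 9h, -0.32 at 15h and -0.36 at 21h, with limma adjusted p of 0.28, 0.428 and 0.812. Without high-fat replicate 2 at 15h the difference at that time was -0.21, and without high-fat replicate 3 at 21h that at 21h was -0.18. The call is close to the threshold: without 1 library the limma adjusted p ranged from 0.022 to 0.127, it stayed under 0.05 in 3 of 12 such fits, and leaving out control replicate 2 at 9h gave 0.127. In RNA from a mixed tissue, fewer cells of a type and less RNA per cell cannot be told apart.

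T cell markers were lower in the same libraries. The 4 markers in the table summed to 8.39 to 15.5 FPKM in the control libraries and to 4.54 to 6.15 FPKM in the high-fat ones. For averaged diet 2 of the 4, Cd3d and Cd8a, were called lower, against 1.78% of all genes. For keratinocyte markers the sums were 3223 to 3939 FPKM (control) and 2770 to 3640 FPKM (high-fat), and for macrophage markers 249 to 399.7 FPKM and 114 to 298 FPKM, with none called in either list. Across the 12 libraries the level of Lpcat4 had a Pearson r of 0.811 with the T cell score (the mean log2(FPKM + 1) of the list; adjusted permutation p = 0.0304 over 64 pairs of a gene and a marker list), and a Spearman rho with an adjusted p of 0.0697. Within controls r was 0.07, within high-fat mice 0.31, and for deviations from the group means 0.25. With 6 libraries per diet, these r cannot show whether a relation within a diet is absent. With the conjunctiva score, Lpcat4 had r = 0.373 over the 12 libraries (adjusted permutation p = 0.571; rho 0.469, adjusted p = 0.387) and -0.051 without the 2 libraries farthest from the median of Lpcat4. It was 0.933 within controls, 0.938 within high-fat mice and 0.958 for deviations from the group means. The conjunctival markers summed to 1075 to 1634 FPKM in the control libraries and to 1125 to 1957 FPKM in the high-fat ones, and none of the 4 was called. The part of these cell types in the Lpcat4 difference was not tested.

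Lpcat1 encodes the acyltransferase best known for making the saturated phosphatidylcholine of lung surfactant. In controls it was at 4.92 and 4.21 FPKM at 9h, 5.47 and 5.44 FPKM at 15h, and 5.93 and 5.52 FPKM at 21h. In high-fat mice it was at 4.59 and 3.42 FPKM at 9h, 4.04 and 4.88 FPKM at 15h, and 3.75 and 5.39 FPKM at 21h. The diets overlapped at 9h, and at 15h and 21h both control libraries were above both high-fat libraries. That is 2 libraries against 2 at each time, without a share over all genes, and no single-time difference was called. The averaged difference was -0.23 ± 0.10 (SE), with a 95% interval of -0.45 to -0.01 and a limma adjusted p of 0.333, so it did not pass the test.

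Lpcat3 was at 143.5 and 166.1 FPKM at 9h, 145.8 and 125.8 FPKM at 15h, and 107.9 and 151.2 FPKM at 21h in controls. High-fat mice had 127.3 and 199.0 FPKM at 9h, 161.5 and 164.3 FPKM at 15h, and 154.1 and 152.0 FPKM at 21h. The lowest of all was a control library at 21h and the highest was high-fat replicate 7 at 9h. The diets overlapped, with means of 140.1 ± 20.4 FPKM and 159.7 ± 23.3 FPKM (SD, n = 6 each). The averaged difference was 0.19 ± 0.12 (SE), with a limma adjusted p of 0.547 and a 95% interval of -0.09 to 0.47. It was 0.08 without high-fat replicate 7 at 9h, 0.11 without control replicate 1 at 21h and 0.30 without high-fat replicate 6 at 9h.

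The ratio of Lpcat3 to Lpcat4 did not overlap between the diets, but neither did Lpcat4 alone, so the ratio is not a separate diet result. Lpcat3 over Lpcat4 was 3.37 to 4.96 in the 6 control libraries (mean 4.24 ± 0.64 SD) and 4.97 to 9.35 in the 6 high-fat libraries (mean 6.61 ± 1.57 SD). The lowest high-fat library and the highest control library nearly touched. The ratio was formed after the values were seen and is given as a description with no test.

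Gpam was higher in most high-fat libraries without passing the test. The averaged difference was -0.04 for Gpat4 and -0.15 for Gpat3, which catalyse the same first acylation step, and neither was called. Gpam, the glycerol-3-phosphate acyltransferase of the outer mitochondrial membrane, was at 35.1 and 41.7 FPKM at 9h, 39.6 and 34.0 FPKM at 15h, and 33.1 and 41.6 FPKM at 21h in controls. In high-fat mice it was at 36.0 and 51.6 FPKM at 9h, 50.1 and 48.0 FPKM at 15h, and 48.2 and 46.7 FPKM at 21h. High-fat replicate 6 at 9h lay among the controls, and the other 5 high-fat libraries were above all 6 controls. The share of all genes with this pattern is not given here. The means were 37.5 ± 3.91 FPKM and 46.8 ± 5.56 FPKM (SD, n = 6 each), a ratio of 1.25. The averaged difference was 0.31 ± 0.10 (SE), with a 95% interval of 0.08 to 0.54, an unadjusted limma p of 0.0141 and an adjusted p of 0.212.

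Agpat3 and Agpat2 both form phosphatidic acid, and neither passed the test. Agpat3, which favours polyunsaturated acyl chains, was at 43.5 and 45.0 FPKM at 9h, 38.8 and 34.3 FPKM at 15h, and 32.0 and 34.9 FPKM at 21h in controls. In high-fat mice it was at 38.3 and 51.2 FPKM at 9h, 42.9 and 57.0 FPKM at 15h, and 41.1 and 44.0 FPKM at 21h. The diets overlapped at 9h, where the difference was 0.00. Both high-fat libraries were above both control libraries at 15h (difference 0.43) and at 21h (0.34). That is 2 libraries against 2, the share of all genes so separated is not given here, and neither difference was called. The difference at 15h was 0.23 without high-fat replicate 6 and 0.63 without high-fat replicate 2 of that time. Averaged, the difference was 0.26 ± 0.09 (SE), with an unadjusted limma p of 0.023 and an adjusted p of 0.264, and the interaction with time had an adjusted p of 0.999.

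Agpat2, whose loss causes a lipodystrophy, was at 10.9 and 9.47 FPKM at 9h, 13.3 and 11.7 FPKM at 15h, and 10.4 and 13.2 FPKM at 21h in controls. High-fat mice had 12.5 and 9.40 FPKM at 9h, 10.6 and 12.0 FPKM at 15h, and 13.0 and 13.5 FPKM at 21h. The diets overlapped at all 3 times. The averaged difference was 0.04 ± 0.09 (SE), with a 95% interval of -0.16 to 0.24 and a limma adjusted p of 0.887.

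Neither lipin passed a test of diet or of time, and the value of Lpin1 nearest to the threshold was its difference between 21h and 9h. Lpin1, the phosphatidate phosphatase most abundant in muscle and fat, was at 7.54 and 6.74 FPKM in controls at 9h and at 5.60 and 8.15 FPKM in high-fat mice at 9h. At 15h it was at 4.55 and 4.82 FPKM in controls, against 3.96 and 5.80 FPKM on the high-fat diet, and at 21h at 5.07 and 3.92 FPKM and at 4.23 and 4.95 FPKM. Both control libraries at 9h were above all 4 later control libraries, a pattern whose share over all genes is not given here. In high-fat mice 1 library at 15h (5.80 FPKM) was above 1 at 9h (5.60 FPKM). The means at 9h, 15h and 21h were 7.01 ± 1.10, 4.78 ± 0.77 and 4.54 ± 0.56 FPKM (SD, n = 4 each).

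On the log2(FPKM + 1) scale Lpin1 was -0.53 ± 0.14 (SE) at 21h against 9h, both diets together, with a limma adjusted p of 0.0572, and -0.47 ± 0.14 (SE) at 15h against 9h, with an adjusted p of 0.111. Across all genes, 6.02% were called between 21h and 9h and 0.0227% between 15h and 9h, and none of the 8 genes was among them. The F test of time over both diets gave Lpin1 an unadjusted limma p of 0.0078 and an adjusted p of 0.101; 1.46% of all genes and none of the 8 were called, and at an unadjusted p under 0.05 it was 1 of the 8 against 23.6% of all genes. Within controls the F test called 0.0227% of genes and within high-fat mice 0.0%, again with none of the 8 called; 1 of the 8 had an unadjusted p under 0.05 in each diet, against 18.3% and 8.73% of all genes. Without high-fat replicate 6 at 9h the F test over both diets gave Lpin1 an adjusted p of 0.0251. The diet difference of Lpin1 was -0.00 ± 0.11 (SE), with a 95% interval of -0.26 to 0.25.

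Skeletal muscle markers moved with time in the same libraries. Their summed level was 5437 to 6914 FPKM at 9h, 2533 to 4904 FPKM at 15h and 2894 to 4441 FPKM at 21h. By the F test 3 of the 10, Ckm, Myh4 and Actn3, were called for time, against 1.46% of all genes. Over the 12 libraries Lpin1 had a Pearson r of 0.771 with the muscle score (adjusted permutation p = 0.0498 over the 64 pairs) and a Spearman rho of 0.685 (adjusted p = 0.109). Within controls r was 0.905 and within high-fat mice 0.685. Leaving out the 2 libraries farthest from the median of Lpin1 gave r = 0.543, and deviations from the group means gave 0.307. The part of muscle content in the time difference of Lpin1 was not tested.

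Lpin2 showed another course. In controls it was at 6.86 and 9.40 FPKM at 9h, 8.01 and 7.13 FPKM at 15h, and 7.08 and 9.47 FPKM at 21h. In high-fat mice it was at 6.02 and 4.74 FPKM at 9h, 8.09 and 10.7 FPKM at 15h, and 8.33 and 9.94 FPKM at 21h. Both high-fat libraries at 9h were below all the other 10 libraries, a pattern whose share over all genes is not given here. At 15h both high-fat libraries were above both control libraries, also without a share over all genes, and at 21h the diets overlapped. The high-fat difference of 15h against 9h was 0.70 ± 0.20 (SE) and that of 21h against 9h was 0.67 ± 0.20 (SE), with limma adjusted p of 0.313 and 0.317. At 9h high-fat minus control was -0.51 ± 0.20 (SE), with a limma adjusted p of 0.631. The interaction of diet and time had an unadjusted limma p of 0.0437 and an adjusted p of 0.999, so a diet-dependent course was not shown. Without control replicate 3 at 9h the difference at 9h was -0.31, and without control replicate 2 it was -0.71. Lpin2 had r = -0.737 with the skeletal muscle score over the 12 libraries (adjusted permutation p = 0.056; rho -0.769, adjusted p = 0.0636), -0.499 without the 2 libraries farthest from the median of Lpin2, -0.32 within controls and -0.93 within high-fat mice. The part of muscle content in the course of Lpin2 was not tested.

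The share of Lpin1 in the sum of both lipin transcripts was 41.8% to 63.2% in the 4 libraries at 9h (mean 51.4 ± 9.03 SD), 32.9% to 40.3% at 15h (36.1 ± 3.12) and 29.2% to 41.8% at 21h (34.5 ± 5.25). The lowest library at 9h and the highest at 21h were equal to the printed digit. This share was also formed after the values were seen and has no test.

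**Figure D3:**
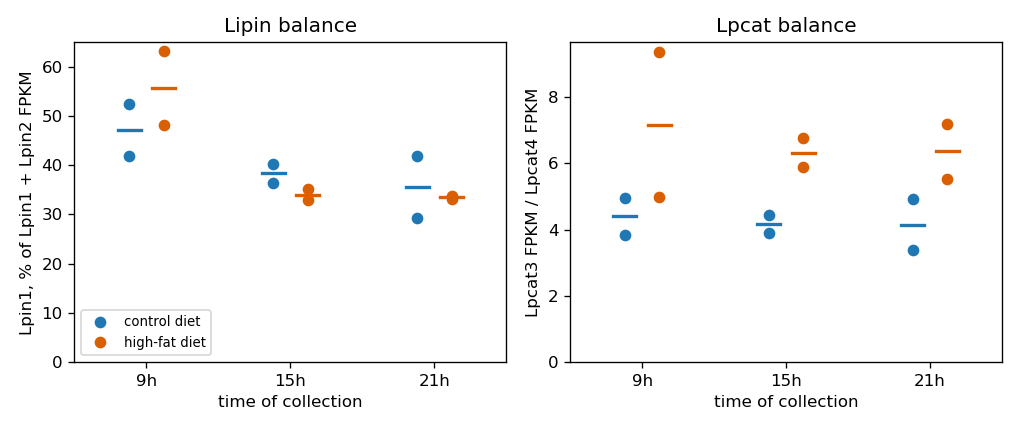
Lpcat3 FPKM divided by Lpcat4 FPKM, and Lpin1 as a percent of Lpin1 plus Lpin2, in each of the 12 libraries by diet and time; each point is 1 library and each bar a group mean. The ratio is 3.37 to 4.96 in controls and 4.97 to 9.35 in high-fat mice, and the Lpin1 share is 41.8% to 63.2% at 9h against 29.2% to 41.8% later. Lpcat4 alone also does not overlap between the diets.

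With both diets together, the differences of the other genes between 21h and 9h were smaller in size than that of Lpin1, and none was called. Lpin2 was 0.35 ± 0.14 (SE) at 21h against 9h over both diets, with a limma adjusted p of 0.142. Agpat3 was -0.23 ± 0.12 (SE) in the same comparison (limma adjusted p = 0.229) and Agpat2 was 0.23 ± 0.11 (SE) (adjusted p = 0.2). For Lpcat1 the same difference was 0.21 ± 0.12 (SE), for Lpcat3 -0.16 ± 0.15 (SE) and for Gpam 0.05 ± 0.12 (SE), with adjusted p of 0.271, 0.503 and 0.835. For Lpcat4 it was -0.06 ± 0.10 (SE), with an adjusted p of 0.725.

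Some of the 8 genes varied together from library to library, and others in opposite directions. Gpam and Lpcat3 had a Pearson r of 0.856 over the 12 libraries (adjusted permutation p = 0.00112 over 28 pairs, 100000 permutations) and a Spearman rho of 0.902 (adjusted p = 0.0056). Without the 2 libraries farthest from the median of Gpam r was 0.811, within controls it was 0.873, within high-fat mice 0.868, and for deviations from the group means 0.98. Agpat3 and Lpcat3 followed with r = 0.80 (adjusted permutation p = 0.0279) and rho = 0.846 (adjusted p = 0.0157). Gpam and Agpat3 had r = 0.709 (adjusted permutation p = 0.0441) and a rho with an adjusted p of 0.0658, and without the 2 farthest libraries r was 0.548. Lpcat1 and Lpcat4 had r = 0.723 (adjusted permutation p = 0.0441), but rho had an adjusted p of 0.157 and r was 0.396 without the 2 libraries farthest from the median of Lpcat1. For this pair r was -0.484 within controls, 0.957 within high-fat mice and 0.995 for deviations from the group means. A negative correlation was seen for Gpam and Lpcat4 (r = -0.726, adjusted permutation p = 0.0441; rho -0.706, adjusted p = 0.0658), with r = -0.654 without the 2 farthest libraries, -0.227 within controls and -0.361 within high-fat mice. It was also negative for Lpcat1 and Lpcat3 (r = -0.715, adjusted permutation p = 0.0441; rho -0.72, adjusted p = 0.0658), with r = -0.589 without the 2 farthest libraries, -0.758 within controls and -0.55 within high-fat mice. Each library gives 1 point for every gene, so these relations share the depth and tissue makeup of the libraries. The permutations moved libraries across diets and times. Their p-values therefore do not separate a shared diet or time difference from variation within groups.

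Lpcat3, Gpam and Agpat3 also followed the meibocyte and sebocyte markers. The r with the meibocyte and sebocyte score was 0.932 for Lpcat3 (adjusted permutation p = 0.00128 over 64 pairs; rho 0.895, adjusted p = 0.00928), with 0.978 within controls and 0.907 within high-fat mice. For Gpam it was 0.917 (adjusted permutation p = 0.00224; rho 0.916, adjusted p = 0.00576), with 0.787 within controls and 0.939 within high-fat mice. Agpat3 had 0.852 (adjusted permutation p = 0.00939; rho 0.839, adjusted p = 0.0243), with 0.864 within controls and 0.726 within high-fat mice. Without the 2 libraries farthest from the median of the gene these r were 0.89, 0.871 and 0.802, and for deviations from the group means 0.96, 0.925 and 0.794. With the same score Lpcat1 had r = -0.712 (adjusted permutation p = 0.0816; rho -0.727, adjusted p = 0.0768) and Lpcat4 r = -0.557 (adjusted permutation p = 0.25). The summed level of the 12 markers was 7267, 8944 and 10470 FPKM (lowest, median and highest) in controls, against 7830, 10580 and 12190 FPKM on the high-fat diet, and 1 of the 12, Soat1, a cholesterol-esterifying enzyme, was called higher with diet (0.42 ± 0.08 SE, limma adjusted p = 0.0408). Markers such as Scd1 and Soat1 are themselves lipid enzymes, and Scd1 is also in the list of fatty acid synthesis genes counted below. With this score, gland content and the level of lipid genes per cell cannot be told apart. The part of gland content in the differences of Gpam, Agpat3 and Lpcat3 was not tested.

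**Figure D4:**
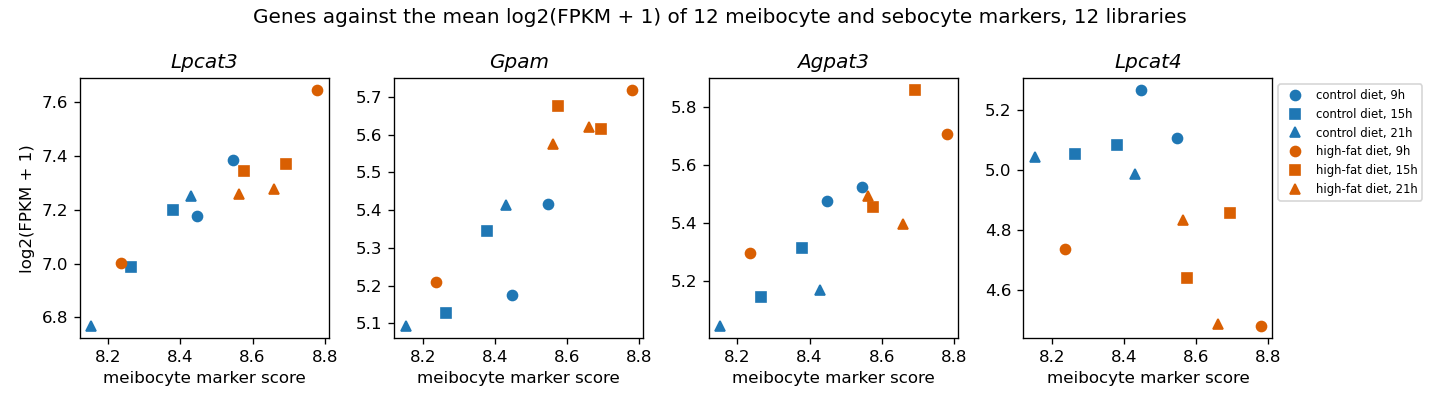
Level of a gene in log2(FPKM + 1) (y axis) against the meibocyte and sebocyte score, the mean log2(FPKM + 1) of 12 marker genes (x axis), over the 12 libraries; each point is 1 library. Lpcat3, Gpam and Agpat3 rise with the score (r = 0.932, 0.917 and 0.852), and Lpcat4 has r = -0.557.

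Among 7800 genes with a mean of at least 5 FPKM, those most like each of the 8 over the 12 libraries were found by the Pearson r of log2(FPKM + 1), given as a description. The pattern of Gpam was nearest to Abcd3 (0.981), Cds1 (0.962) and Aco1 (0.961), and that of Lpcat3 to Lclat1 (0.976), Crat (0.971) and Dnase2a (0.967). Cds1 and Lclat1 encode a CDP-diacylglycerol synthase and a lysocardiolipin acyltransferase, and both belong to the further lipid enzymes counted here. Agpat3 was nearest to Pxmp4 (0.936), Dbt (0.93) and Tfeb (0.913), and Agpat2 to Bloc1s4 (0.942), Lrrc57 (0.91) and Pip4p1 (0.878). For Lpcat4 the nearest were Cldn7 (0.937), Mxd1 (0.936) and Rnpep (0.932), and for Lpcat1 they were Apobec1 (0.959), Plekho1 (0.936) and Cd24a (0.933). Lpin1 was nearest to Wbp1l (0.969), Synpo (0.961) and Fbxo31 (0.959), and Lpin2 to Acp7 (0.925), Prss8 (0.918) and Sprr4 (0.91). No gene was among the 3 nearest of more than 1 of the 8.

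The other acyltransferases examined gave no call. Of 16 further enzymes chosen, among them other GPAT, AGPAT, LPCAT, MBOAT and DGAT genes and Lpin3, 14 were tested. By limma 0 were called for diet, for time or for their interaction. At an unadjusted p under 0.05 there were 2 for averaged diet and 0 for time, against 14.1% and 23.6% of all genes. Their median diet difference was 0.03, with 7 of 14 positive. The smallest p for diet were those of Mboat1 (-0.21 ± 0.07 SE, limma adjusted p = 0.233) and Mboat2 (0.22 ± 0.09 SE, adjusted p = 0.303), both acyltransferases of lysophospholipids. The smallest p for time were those of Agpat1 and again Mboat1 (limma adjusted p = 0.346 and 0.373). Dgat2, which makes triglyceride from diacylglycerol, averaged 414 FPKM, more than any of the 8. Mogat1 and Mogat2 did not pass the filter on low values.

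Enzymes before and after the acylation steps were also mostly without calls. Of 24 such genes in the table, from glycerol phosphate supply to the making of phosphatidylcholine, phosphatidylethanolamine and cardiolipin, 22 were tested and 0 were called for averaged diet by limma, with 6 at an unadjusted p under 0.05. Of all genes, 14.1% had such a p. The median difference of the 22 was -0.01, with 8 of 22 positive. The smallest p were those of Gk, the glycerol kinase (-0.33 ± 0.09 SE, limma adjusted p = 0.105), and Ctdnep1, a phosphatase that acts on lipin (-0.19 ± 0.06 SE, adjusted p = 0.148). For time, 1 of the 22, Gk, was called, against 1.46% of all genes. Its means were 23.0, 32.4 and 36.2 FPKM at 9h, 15h and 21h (limma adjusted p = 0.0482 for the F test). Pcyt2, an enzyme of phosphatidylethanolamine synthesis, had the next smallest p (adjusted p = 0.0677). Between 21h and 9h Gk (0.59 ± 0.11 SE, adjusted p = 0.0226) and Pisd, the phosphatidylserine decarboxylase of mitochondria (0.35 ± 0.08 SE, adjusted p = 0.0402), were both called higher at 21h. Of all genes, 6.02% were called between these times.

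Genes of the regulators known to act on these enzymes were counted in the same way. SREBP1 drives fatty acid synthesis and Gpam, LXR receptors drive Lpcat3, and glucocorticoids and fasting raise Lpin1 in liver and fat. For averaged diet, 0 of 11 genes of fatty acid synthesis were called by limma (3 at an unadjusted p under 0.05, median 0.17, 9 positive), 0 of 5 LXR genes (2, median -0.09, 1 positive) and 0 of 10 glucocorticoid and fasting genes (4, median 0.35, 9 positive). Of all genes, 1.98% were called for averaged diet and 14.1% had an unadjusted p under 0.05. For time, 0 of the 11, 0 of the 5 and 0 of the 10 were called (1, 0 and 4 at an unadjusted p under 0.05). The shares of all genes were 1.46% called and 23.6% at an unadjusted p under 0.05. Of 15 clock genes, 7 were called for time (Cry1, Nr1d2, Tef, Npas2, Per3, Ciart and Per2), against 1.46% of all genes. For averaged diet 0 of the 15 were called, with 5 at an unadjusted p under 0.05 against 14.1% of all genes.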

How the data were processed

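The deposited table holds FPKM values for 21936 genes in 12 libraries, 2 for each diet and time. Per the labels' protocols, Trizol was used for RNA and a NEBNext Ultra II kit for libraries. The tools HTSeq 0.9.1, DESeq 1.30.0 and HISAT2 2.0.5 and the build mm9 come from the submitters' processing notes. How counts became FPKM, whether strand was used and which annotation release applied is not given in the sources used here. Of the gene IDs, 21894 are in GENCODE mouse release 21, and with its exon lengths 98.1% of the nonzero values are whole reads within 0.02 reads, which gave the depth per library.

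All 12 libraries entered 1 fit of 6 group means in limma 3.58.1 (R 4.3.3, trend and empirical Bayes) on log2(FPKM + 1). The 13228 genes with over 1 FPKM in 2 or more libraries were tested, with 6 residual degrees of freedom. This scale understates the change of low genes. Tests are 2-sided, with Benjamini-Hochberg adjustment across the genes tested. Correlations used 100000 permutations of all 12 libraries, across diets and times (Python 3.11.15, numpy 2.4.6). The 8 genes and all lists were chosen with earlier results of these data known. Of each list the called genes are named, of the lists of other lipid enzymes also the 2 with the smallest p for diet and for time, and for each of the 8 genes its 3 nearest in r; other names outside that rule were picked after their values were seen. On simulated data with changed genes among 13228, 94% of 2-fold and 98% of 4-fold changes were recovered for averaged diet. For time it was 89% and 98%, and for the interaction 51% and 88%. Recovery of changes below 2-fold is not given here. The averaged diet difference largest in size among the 8 genes was -0.42 (Lpcat4), less than a 2-fold change. These shares therefore cannot show how often differences of that size or smaller would be called, and an uncalled gene may still differ. The alternatives were another pseudocount, other filters, fits of the compared libraries, median-of-ratios scaling, limma-voom on the recovered reads, a replicate block and leaving out each library.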

Additional observations from a re-analysis of the deposited data

Results flagged for a closer look

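For Gpam, the lowest of the 6 high-fat libraries, replicate 6 at 9h, was at 36.0 FPKM (35.97), far from the other 5, which were at 46.7 to 51.6 FPKM. Its gap to the nearest of them was 0.683 of the whole range of the group. Chance marks about 1 in 20 groups in this way, and 16 groups of 6 libraries were examined.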

How the results depend on the processing

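The call of Lpcat4 for averaged diet rests on the settings: its difference was -0.54 to -0.36 over 18 alternatives and it was called in 7 of them, with a limma adjusted p of 0.0538 without the filter and 0.022 to 0.127 without 1 library. So the count of called genes among the 8 was 0 without the filter and 0 to 1 without 1 library, and for averaged time it was also 0 to 1, with Lpin1 called without high-fat replicate 6 at 9h. Counts over all genes moved more. Without 1 library they were 143 to 294 for averaged diet (262 with all), 0 to 155 for diet at 9h (0 with all), 0 to 72 at 15h (8), 0 to 27 at 21h (1), 1 to 2503 for averaged time (193), 0 to 840 for time in controls (3) and 0 to 63 for time in high-fat mice (0); the highest for averaged time came without high-fat replicate 6 at 9h, the lowest without high-fat replicate 3 at 21h. Diet at 9h called 47 genes in a fit of the compared libraries. Diet at 15h called 2 with a pseudocount of 0.1, 1 without the filter, and 0 with the filter in all libraries, in the compared libraries and by limma-voom. Diet at 21h called 2 with median-of-ratios scaling and 0 with the other settings named. Averaged time called 126 with a pseudocount of 0.1, 7 without the filter and 292 by limma-voom. Time in controls called 1 without the filter, 5 with the filter in all libraries and 831 in the compared libraries. The causes were not tested.

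Sign changes occurred only in values that were not called, in 38 cases. With median-of-ratios scaling, averaged diet was 0.0088 for Lpin1 and diet at 9h -0.0144 for Agpat3. Without 1 library, averaged diet ranged from -0.0238 to 0.1014 for Agpat2, -0.0803 to 0.0771 for Lpin1 and -0.1019 to 0.0328 for Lpin2. Diet at 9h ranged from -0.0868 to 0.4226 for Gpam, from -0.1004 to 0.2755 for Agpat2, from -0.2033 to 0.2067 for Agpat3, from -0.3286 to 0.0101 for Lpcat1, from -0.276 to 0.3638 for Lpcat3 and from -0.3017 to 0.1704 for Lpin1. Diet at 15h ranged from -0.1957 to 0.2584 for Lpin1. Diet at 21h ranged from -0.123 to 0.1821 for Lpin1 and from -0.0514 to 0.3233 for Lpin2.

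Library numbers recur across groups, but same-numbered libraries did not deviate together (r of deviations from the group means -0.502 to 0.289), so the numbers do not show a pairing. Numbers 6 and 7 occur only in high-fat groups and number 1 only in a control group. A block by number is therefore partly confounded with diet, and it leaves fewer residual degrees of freedom. Its fits cannot fully tell a diet difference from a difference between numbers. With a replicate block, averaged diet called 0 of the 8 and 0 of all genes (Lpcat4 -0.54, limma adjusted p = 0.203), diet at 9h called 1 gene, and diet at 15h and 21h, averaged time and time in controls called 0. Under the block averaged diet was -0.0001 for Agpat2, -0.0014 for Agpat3 and -0.001 for Lpcat3; diet at 9h was -0.0343 for Gpam, -0.4527 for Agpat3 and -0.2786 for Lpcat3; diet at 15h was -0.1228 for Lpin1; and diet at 21h was -0.2979 for Lpin2.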
